A study of Mus musculus with 12 samples.

Results

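The axon guidance genes measured here were the semaphorins, their plexin and neuropilin receptors, the ephrins and Eph receptors, Slits, Robos and netrins with their receptors, and the collapsin response mediator proteins. They were chosen by gene symbol, from probe sets that the array annotation ties to exactly 1 gene. The rule matched 62 genes on the array, of which 27 had a probe set with a log2 signal above 4 on at least 3 of the 12 arrays, against 6651 genes that passed the same filter in the whole table. Each gene was represented by its probe set with the highest mean signal. Closest to the filter inside it was Sema6b, above 4 on 3 arrays with a mean of 3.88. Outside it, Epha8 was above 4 on 1 array, and Plxnb3, with the highest mean there (3.70), on 0.

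The arrays were Affymetrix hybridisations of total RNA from the mouse striatum, a forebrain nucleus rich in medium spiny neurons, dissected together with the nucleus accumbens. There were 4 groups of 3 female littermate mice aged 10 to 15 weeks: mutants given cocaine, mutants given saline, controls given cocaine and controls given saline. Cocaine, a blocker of dopamine reuptake, was injected into the peritoneum at 25 mg/kg, and the animals were killed 1 hour later. All animals were housed singly and handled for 5 days beforehand. The series concerns serum response factor (SRF), a transcription factor that binds the CArG box, and the mutants are taken to be its mutants. The labels used here state neither the Srf allele, nor the cells it was changed in, nor any driver. The grouping here is that of the sample titles, where every animal has its own number. The sample descriptions name other groups, and the treatment text names cocaine for every sample.

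The array's Srf signal followed the genotypes of the titles. It was 5.33, 5.46 and 5.49 in cocaine mutants and 5.28, 5.27 and 5.01 in saline mutants, against 7.13, 7.20 and 6.97 in cocaine controls and 7.11, 7.21 and 7.18 in saline controls, a log2 difference of -1.83 ± 0.07 (SE) and a limma adjusted p of 5.7e-09. The immediate early genes Fos, Arc, Junb and Egr2 followed the treatments of the titles in controls. Their cocaine minus saline log2 differences there were 4.16, 3.59, 2.79 and 3.88, all called in limma. In mutants Fos (3.64), Arc (2.7025) and Junb (2.94) were called, and Egr2 (-0.06) was not. The array medians lay between 3.75 and 3.78, and arrays of 1 group correlated at 0.986 to 0.993 over the probe sets that passed the filter. Control cocaine replicate 3 stood apart in Ttr, the choroid plexus transthyretin gene, at 9.61 against at most 5.90 on the other 11 arrays. The number of arrays, 3 in a group, limits the precision of every value below.

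Guidance cues steer growing axons by attracting or repelling the growth cone. Secreted semaphorins act through neuropilins and plexins, ephrins through Eph receptor tyrosine kinases, Slits through Robo receptors and netrins through Dcc and Unc5 receptors. Collapsin response mediators carry such signals to the cytoskeleton. Some guidance genes also take part in the sorting of striatal inputs and compartments. In the adult brain many of these genes stay on and act at synapses. In cultured mouse hippocampal neurons, growth cones need SRF to respond to ephrins.

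Promoter sequence is shown first for the pair of genes with the largest genotype differences, Sema7a and Sema3a, and for the pair whose promoters held a CArG box, Robo1 and Sema4d. The windows are RefSeq promoters of build GRCm38.p6, from 250 bases before to 50 after the start, read 5′ to 3′ on the strand of the gene. The Sema7a window was chr9:57939862-57940161 on the plus strand and the Sema3a window chr5:13396534-13396833 on the plus strand. The Robo1 window was chr16:72662899-72663198 on the plus strand and the Sema4d window chr13:51748761-51749060 on the minus strand. Capitals mark the CArG box.
Sema7a: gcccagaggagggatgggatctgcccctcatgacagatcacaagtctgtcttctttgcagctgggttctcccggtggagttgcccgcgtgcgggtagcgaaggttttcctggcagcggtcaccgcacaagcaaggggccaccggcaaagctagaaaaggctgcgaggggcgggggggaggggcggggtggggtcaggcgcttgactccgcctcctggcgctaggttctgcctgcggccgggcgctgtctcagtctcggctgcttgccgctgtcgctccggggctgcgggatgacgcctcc
Sema3a: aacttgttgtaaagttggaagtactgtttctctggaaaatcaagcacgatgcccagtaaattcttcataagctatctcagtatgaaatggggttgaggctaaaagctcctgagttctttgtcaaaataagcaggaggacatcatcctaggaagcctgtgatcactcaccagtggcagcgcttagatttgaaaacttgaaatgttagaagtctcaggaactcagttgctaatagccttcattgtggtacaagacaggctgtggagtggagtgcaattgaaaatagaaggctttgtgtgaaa
Robo1: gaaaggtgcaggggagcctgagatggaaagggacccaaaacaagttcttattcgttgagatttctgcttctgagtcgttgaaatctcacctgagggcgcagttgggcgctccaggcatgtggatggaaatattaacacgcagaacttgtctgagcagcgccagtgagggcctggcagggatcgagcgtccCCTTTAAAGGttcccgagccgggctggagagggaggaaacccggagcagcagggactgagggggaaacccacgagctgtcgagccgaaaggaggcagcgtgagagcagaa
Sema4d: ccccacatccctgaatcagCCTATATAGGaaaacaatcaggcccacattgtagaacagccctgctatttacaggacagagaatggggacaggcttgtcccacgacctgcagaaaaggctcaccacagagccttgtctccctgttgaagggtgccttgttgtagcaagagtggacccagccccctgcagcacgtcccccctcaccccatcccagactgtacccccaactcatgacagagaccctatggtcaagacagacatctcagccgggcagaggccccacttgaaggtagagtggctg
The Robo1 box, CCTTTAAAGG, began 60 bases before the start, and the Sema4d box, CCTATATAGG, 231 bases before it. The CArG box was searched on both strands. Of the 27 genes, 23 had at least 1 RefSeq promoter, 33 in all, and 2 of the 33 (6.06%) held the box, against 1.63% of 32851 mouse promoters. None of the promoters of the 6 genes called between genotypes below held it. A match describes the letters only, and no match says nothing of SRF.

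Across both treatments, 6 of the 27 genes passed the test between mutants and controls (limma, adjusted p under 0.05 over all 11102 tested probe sets). Sema7a and Slit3 were higher in mutants (4.77% of all tested genes were), and Sema3a, Plxna2, Epha5 and Slit2 were lower (5.92% were). The 6 were 22.2% of the 27, beside 10.7% of all 6651 tested genes. Slit3 passed the filter through mutant arrays alone, the group where it was high, so its call follows in part from the filter; with a filter on a mean signal above 4, 5 of 25 genes were called and Slit3 was not among those tested. The median log2 difference was -0.07 over the members and -0.02 over all genes. The other 21 ranged from -0.28 in Ephb6 to 0.24 in Efna3, and 12 of them had a negative sign. At an unadjusted p under 0.05, 11 of the 27 differed, beside 25% of all genes. With no filter on dim probe sets the count was 2, out of all 62 genes of the rule. There Sema3a, Plxna2, Epha5, Slit2 and Slit3 lost their calls (adjusted p of 0.0633 to 0.135), with Sema7a still called. For the filter on the mean signal and for no filter, the share of all genes called was not computed. The 10.7%, and the 22.2% that includes Slit3, belong to the main filter. Leaving out 1 array at a time gave 2 to 5 calls, as few as 2 without control cocaine replicate 3 and 3 without mutant cocaine replicate 2 or 3, mutant saline replicate 2, control cocaine replicate 1 or 2, or control saline replicate 1 or 3. Sema7a was called in all 12 such fits, Plxna2 in 8, Sema3a and Slit2 in 5 each, Epha5 in 4 and Slit3 in 2. In these whole-tissue samples, fewer cells of a type and less RNA per cell cannot be told apart.

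**Figure D1:**
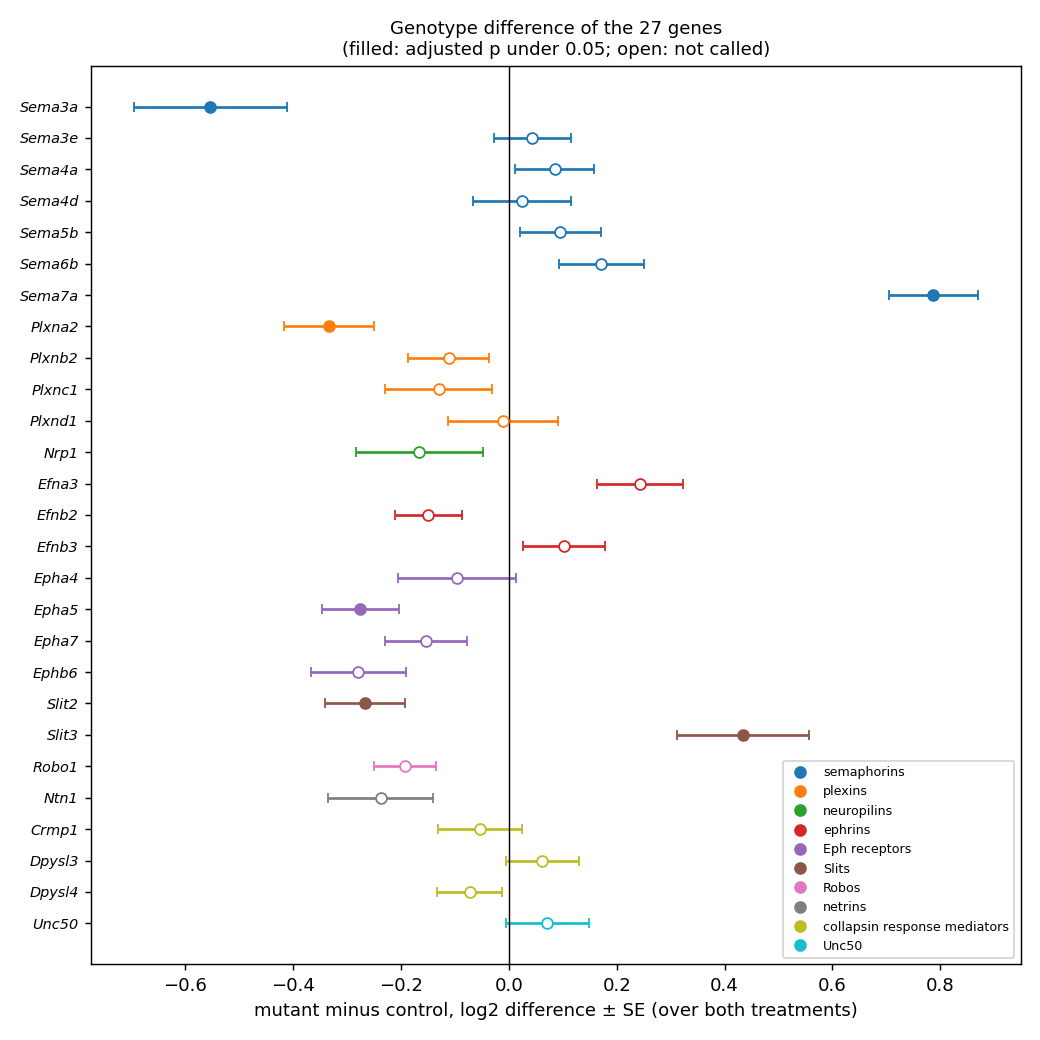
Mutant minus control log2 difference with its SE for each of the 27 genes, over both treatments. Filled points are the 6 called genes, with Sema7a farthest to the right at 0.79 and Sema3a farthest to the left at -0.55.

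Sema7a, a membrane-anchored semaphorin that acts through integrins and plexin C1 and promotes axon growth, had the clearest difference. Its log2 signal was 7.28, 7.37 and 7.47 in cocaine mutants and 7.39, 7.5005 and 7.23 in saline mutants, against 6.56, 6.41 and 6.80 in cocaine controls and 6.40, 6.75 and 6.60 in saline controls. Every mutant array lay above every control array. The log2 difference was 0.79 ± 0.08 (SE), or 1.73-fold (adjusted p = 6.41e-05). It was 0.79 after saline (adjusted p = 0.00248) and 0.79 after cocaine (adjusted p = 0.00202), so the genotypes differed under either treatment. A second Sema7a probe set stayed below the filter at a mean of about 2.48 and gave no check.

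Sema3a, a secreted repellent that binds neuropilin 1, was lower in mutants. It read 5.18, 5.02 and 5.03 in cocaine mutants and 5.21, 4.73 and 5.28 in saline mutants, against 5.76, 5.13 and 5.92 in cocaine controls and 5.33, 5.87 and 5.76 in saline controls. Control cocaine replicate 2 fell inside the mutant range. The log2 difference was -0.55 ± 0.14 (SE), or 1.47-fold lower (adjusted p = 0.0278). The call was lost, at adjusted p of 0.0577 to 0.0689, when mutant cocaine replicate 2 or 3, mutant saline replicate 2, control cocaine replicate 1 or 3, or control saline replicate 2 or 3 was left out. The other tested semaphorins, Sema3e (0.04), Sema4a (0.08), Sema4d (0.02), Sema5b (0.10) and Sema6b (0.17), did not pass. Sema3e signals through plexin D1, and Sema4d through plexin B receptors. Sema7a and Sema3a therefore stood at opposite signs among the 7 of 17 semaphorins that were tested.

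Of the plexins, the receptors that semaphorins bind directly or with neuropilins, only Plxna2 passed among the 4 tested of 7 on the array. Its signal was 4.45, 4.42 and 4.09 in cocaine mutants and 4.17, 4.38 and 4.33 in saline mutants, against 4.41, 4.75 and 4.67 in cocaine controls and 4.79, 4.64 and 4.58 in saline controls. Mutant and control arrays overlapped through control cocaine replicate 1. The log2 difference was -0.33 ± 0.08 (SE), or 1.26-fold lower (adjusted p = 0.0237). The adjusted p was 0.0526 to 0.059 without mutant cocaine replicate 3, mutant saline replicate 1, or control cocaine replicate 2 or 3. Plxnb2 (-0.11), Plxnc1, the Sema7a receptor (-0.13, adjusted p = 0.477), and Plxnd1, the Sema3e receptor (-0.01), did not pass. Nrp1, which Sema3a binds, did not pass either (-0.17, adjusted p = 0.443); its levels ran from 4.72 to 5.46 in mutants and from 5.05 to 5.35 in controls.

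Among the Eph receptors, Epha5, which binds ephrin-As, was lower in mutants. It read 5.10, 5.06 and 5.10 in cocaine mutants and 5.16, 5.13 and 4.99 in saline mutants, against 5.18, 5.51 and 5.47 in cocaine controls and 5.51, 5.30 and 5.23 in saline controls. All 6 mutant arrays lay below all 6 control arrays, the narrowest gap being 5.16 against 5.18. The log2 difference was -0.28 ± 0.07 (SE), or 1.21-fold lower (adjusted p = 0.0303). It was 0.0502 to 0.0744 without any 1 mutant cocaine array, mutant saline replicate 2 or 3, control cocaine replicate 2 or 3, or control saline replicate 1. Ephb6, whose kinase domain is inactive, was -0.28 with an adjusted p of 0.0666, and Epha4 (-0.10) and Epha7 (-0.15) did not pass. Of the ephrins, Efna3 (0.24), Efnb2 (-0.15) and Efnb3 (0.10) did not pass. Efnb3 was the brightest of the 27 at a mean of 7.71. Together Sema7a and Epha5 were the only 2 genes whose mutant and control arrays did not overlap, 7.41% of the 27 beside 5.91% of all genes.

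Of the Slits, 2 of 3 on the array were tested. Slit2, a secreted repellent for Robo-bearing axons, read 4.19, 4.52 and 4.49 in cocaine mutants and 4.29, 4.24 and 4.13 in saline mutants, against 4.75, 4.47 and 4.45 in cocaine controls and 4.58, 4.59 and 4.63 in saline controls. The genotypes overlapped after cocaine and not after saline. The log2 difference was -0.27 ± 0.07 (SE), or 1.20-fold lower (adjusted p = 0.0393). That p was 0.0546 to 0.0895 without mutant cocaine replicate 1, mutant saline replicate 2 or 3, control cocaine replicate 1, or any 1 saline control. Slit3 read 4.43, 4.19 and 3.85 in cocaine mutants and 4.47, 3.77 and 4.22 in saline mutants, against 3.69, 3.75 and 3.84 in cocaine controls and 3.48, 3.80 and 3.76 in saline controls. No control array passed 4, and the gene entered the test through mutant arrays alone, so its direction is given as a description. The log2 difference was 0.43 ± 0.12 (SE), or 1.35-fold (adjusted p = 0.0412). The call held only without mutant cocaine replicate 3 or mutant saline replicate 2, and leaving out any other single array gave an adjusted p of 0.0505 to 0.0971. Their receptor Robo1 was lower on every mutant array than on every control array within each treatment, but its difference of -0.19 ± 0.06 (SE) did not pass (adjusted p = 0.0551).

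**Figure D2:**
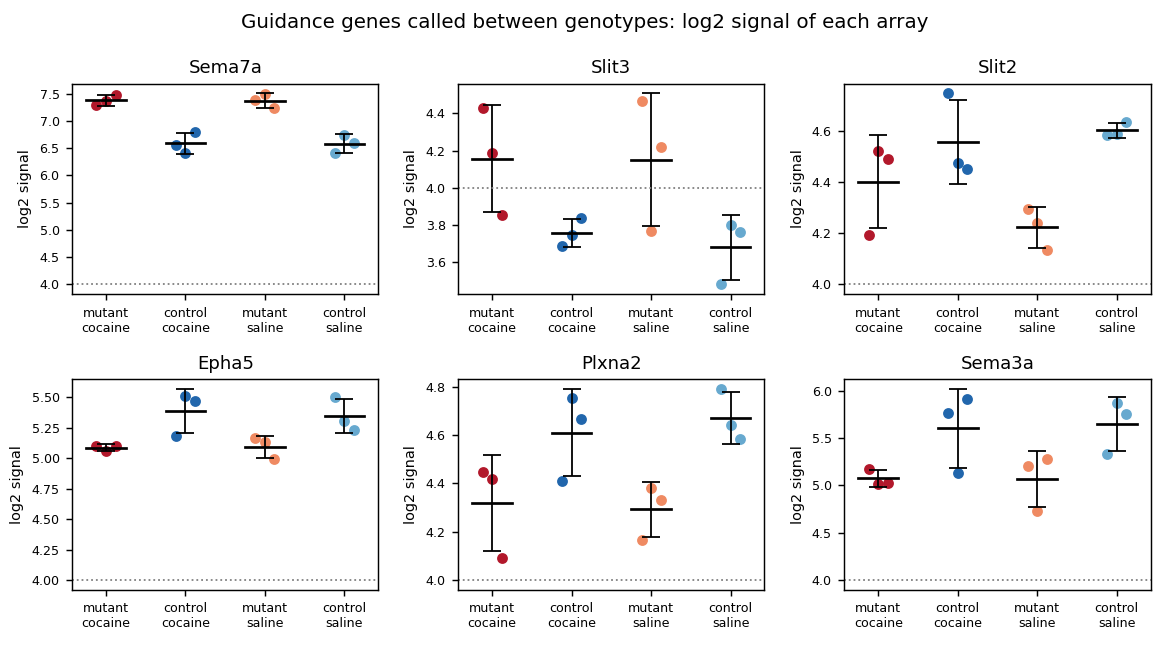
Log2 signal of each array for the 6 called genes, with mutant beside control for cocaine and for saline; bars show the mean and SD of 3 arrays and the dotted line the filter at 4. The mutant arrays of Sema7a lie above all controls and those of Epha5 below all controls, while Slit3 controls lie under 4.

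Netrin 1 (Ntn1) was -0.24 with an adjusted p of 0.156, and of its receptors on the array Dcc, Unc5b and Unc5c did not pass the filter. Neogenin (Neo1), a further netrin receptor that the rule does not cover, was tested and was not called (0.12, adjusted p = 0.294). The collapsin response mediators Crmp1 (-0.05), Dpysl3 (0.06) and Dpysl4 (-0.07) did not pass. Unc50, which the rule matched by spelling and which is no Unc5 receptor, was at 0.07. In Caenorhabditis elegans its relative is needed for transport of nicotinic receptors. Of the 35 genes below the filter, 34 exceeded 4 on no array, and Epha8 did so once.

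Within single treatments only Sema7a passed. After saline this was 1 of the 27 genes beside 3.43% of all genes, and after cocaine 1 of 27 beside 4.75%. Mutant and control arrays did not overlap for 11 genes after saline (40.7%, beside 20% of all genes): Efna3, Efnb3, Sema6b and Sema7a were all higher, and Epha5, Epha7, Efnb2, Plxna2, Robo1, Sema3a and Slit2 all lower. Sema6b exceeded 4 on the 3 saline mutant arrays only and entered through them, so its place in that count follows from the filter. After cocaine it was 7 genes (25.9%, beside 26%), with Sema7a and Slit3 all higher and Dpysl4, Epha5, Ephb6, Plxnb2 and Robo1 all lower. Slit3 entered through mutant arrays alone, so its place in the cocaine count follows in part from the filter. Sema7a, Epha5 and Robo1 were in both sets.

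**Figure D3:**
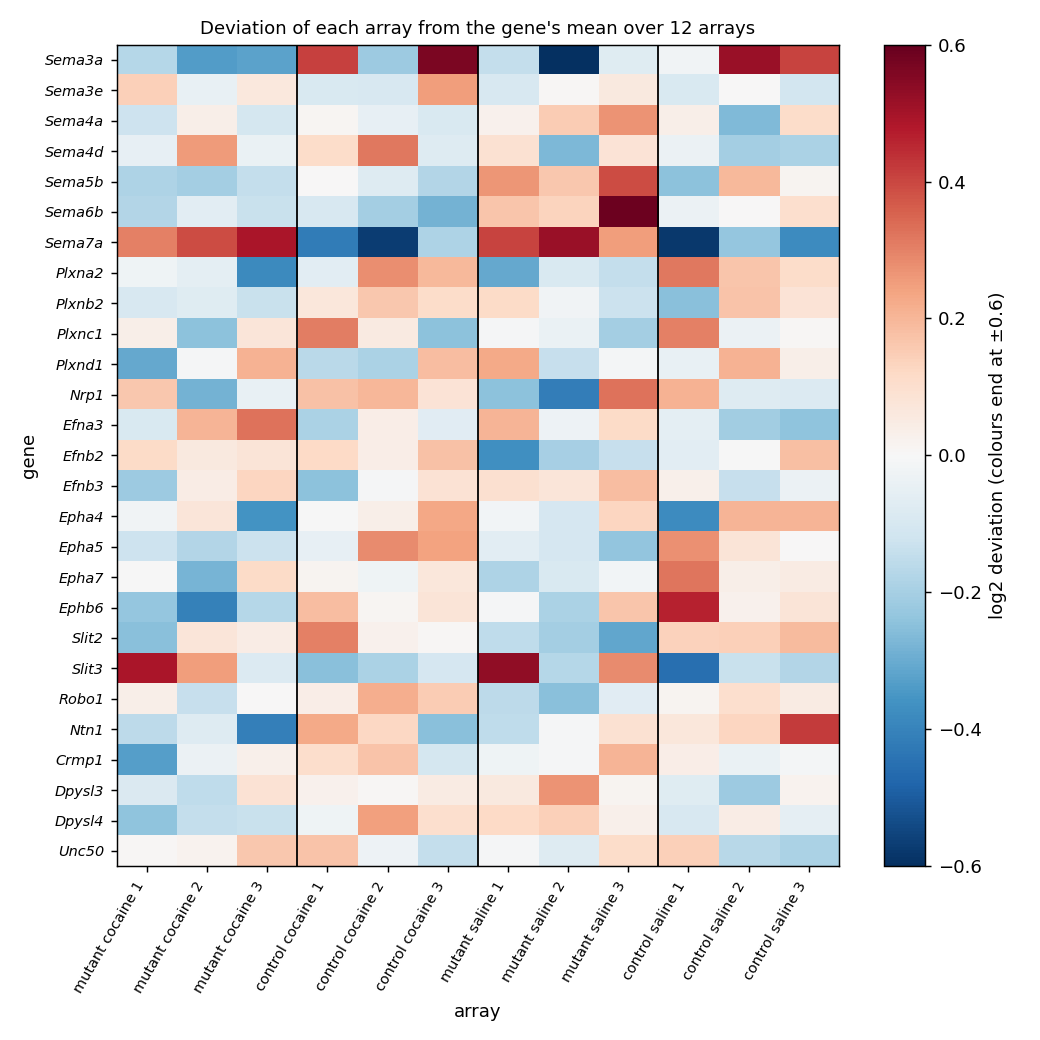
Deviation of each array from the gene's mean over 12 arrays, in log2 units, with genes in rows and arrays in columns grouped as mutant cocaine, control cocaine, mutant saline and control saline. Sema7a is above its mean on all 6 mutant arrays and below it on all 6 control arrays, and Sema3a runs the other way except on control cocaine replicate 2 and control saline replicate 1.

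Cocaine called none of the 27 genes 1 hour after injection. In mutants 0 of 27 passed in limma, beside 2.14% of all genes, with 4 at an unadjusted p under 0.05, beside 10.7% of all genes. In controls it was 0 beside 0.586%, and 0 at an unadjusted p under 0.05, beside 6.34%. Over both genotypes it was 0 beside 2.53%, and 3 at an unadjusted p under 0.05, beside 11.4%. Sema6b, which passed the filter through the saline mutants alone, was among the 4 and the 3. Its place in both counts follows in part from the filter. Responses ranged from -0.45 to 0.32 in mutants and from -0.22 to 0.26 in controls. All 27 of the 95% intervals lay within a log2 change of 1 in either direction in each genotype.

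The lowest values in mutants were those of Sema5b, a transmembrane semaphorin, and Sema6b, a plexin A ligand. Sema5b read 3.93, 3.92 and 3.98 in cocaine mutants against 4.38, 4.28 and 4.51 in saline mutants, and 4.12, 4.04 and 3.94 in cocaine controls against 3.87, 4.31 and 4.14 in saline controls. The mutant groups did not overlap and the control groups did; the response was -0.45 in mutants (adjusted p = 0.0533) and -0.07 in controls (adjusted p = 0.979). Sema6b was -0.42 in mutants (adjusted p = 0.0972) and -0.22 in controls (adjusted p = 0.851), with no overlap in either. It passed the filter through the saline mutants alone, the group that is high in this comparison, so its values are a description. Gfap, an astrocyte marker, was also high in saline mutants: 3.58, 4.26 and 4.26 in cocaine mutants against 4.87, 4.71 and 5.58 in saline mutants, a change of -1.02 (adjusted p = 0.0303), the only call among 10 astrocyte markers. Its part in the Sema5b and Sema6b values was not tested. Dpysl4 read 4.99, 5.08 and 5.09 in cocaine mutants against 5.35, 5.37 and 5.26 in saline mutants, a change of -0.27 (adjusted p = 0.18). In controls it was 0.14 (adjusted p = 0.905). The second tested Dpysl4 probe set, at a mean of 4.23, was negative in both genotypes. Its change was -0.37 in mutants (adjusted p = 0.482) and -0.25 in controls (adjusted p = 0.928). Treatment groups did not overlap for 4 of the 27 genes in mutants (14.8%, beside 16% of all genes) and for 1 in controls (3.7%, beside 11.4%). Sema6b was among the 4, so its place there follows in part from the filter.

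**Figure D4:**
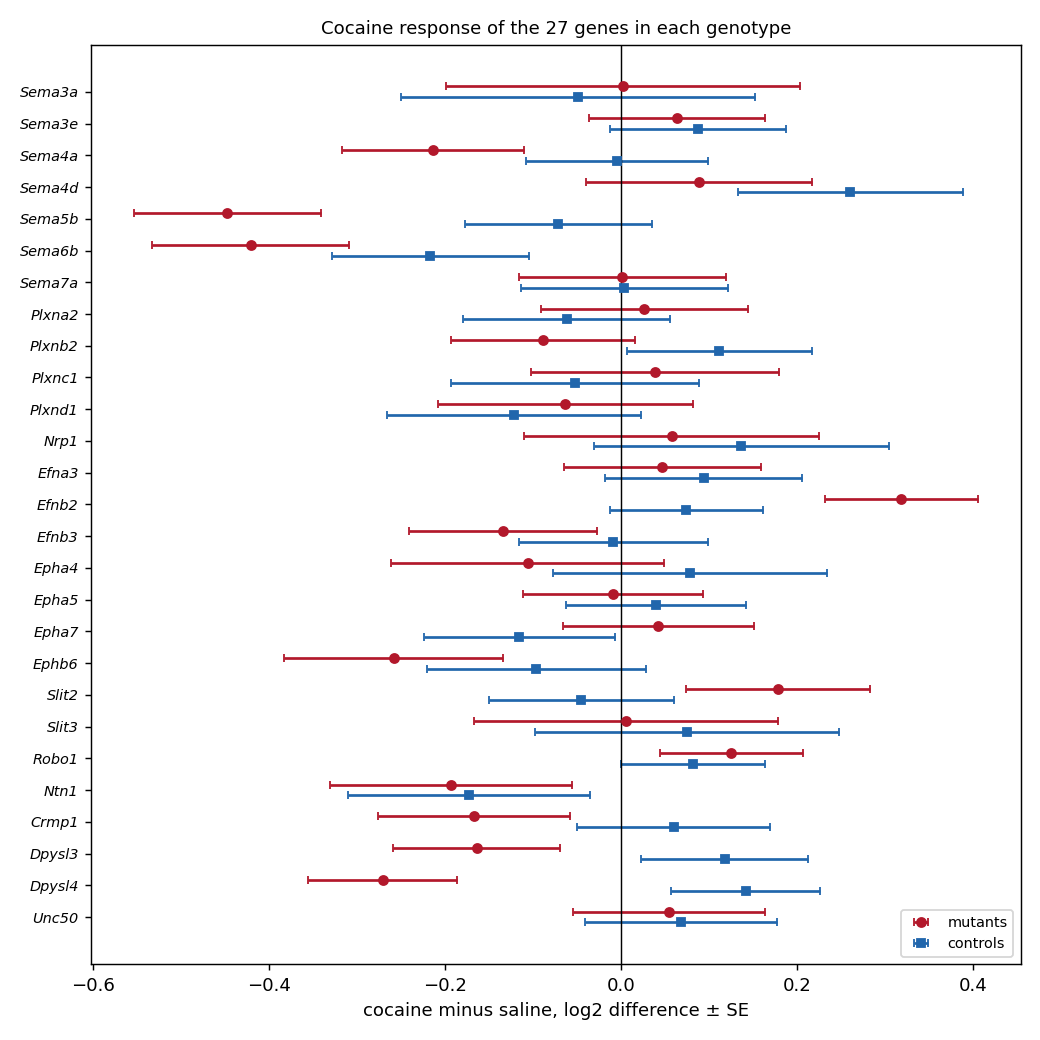
Cocaine minus saline log2 difference with its SE for each of the 27 genes, in mutants and in controls. None is called; in mutants the values run from -0.45 in Sema5b to 0.32 in Efnb2.

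The difference between genotypes in the response called 0 of the 27 genes in limma, beside 0.105% of all genes, with 2 at an unadjusted p under 0.05, beside 4.84%. Those were Dpysl4 (-0.41, adjusted p = 0.591) and Sema5b (-0.38, adjusted p = 0.939). On the second tested Dpysl4 probe set the difference in response was -0.12 (limma unadjusted p = 0.649). Sema7a had a difference in response of -0.0022 with a 95% interval of -0.36 to 0.36.

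Efnb2, the transmembrane ligand ephrin-B2, had 3 tested probe sets. The brightest read 7.36, 7.30 and 7.32 in cocaine mutants and 6.87, 7.04 and 7.10 in saline mutants, against 7.36, 7.28 and 7.41 in cocaine controls and 7.17, 7.24 and 7.42 in saline controls. The second read 5.84, 6.11 and 6.06 in cocaine mutants and 5.52, 5.53 and 5.76 in saline mutants, against 6.17, 6.01 and 6.11 in cocaine controls and 5.996, 5.94 and 6.13 in saline controls. The third read 4.40, 4.88 and 4.37 in cocaine mutants and 3.54, 3.96 and 3.78 in saline mutants, against 4.73, 4.45 and 4.19 in cocaine controls and 4.19, 4.16 and 4.60 in saline controls. In all 3, saline mutants were the low group, and on the third every saline mutant array lay below 4. After saline the mutants were at -0.27 (adjusted p = 0.137), -0.42 (adjusted p = 0.0393) and -0.56 (adjusted p = 0.131) relative to controls. The cocaine response in mutants was 0.32 (adjusted p = 0.113), 0.40 (adjusted p = 0.0666) and 0.79 (adjusted p = 0.0385), in the same order. In controls the response was 0.07, 0.07 and 0.14. The difference in response between genotypes was 0.24, 0.32 and 0.65 (limma unadjusted p of 0.0699, 0.0372 and 0.0222). After adjustment it passed for none of them.

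**Figure D5:**
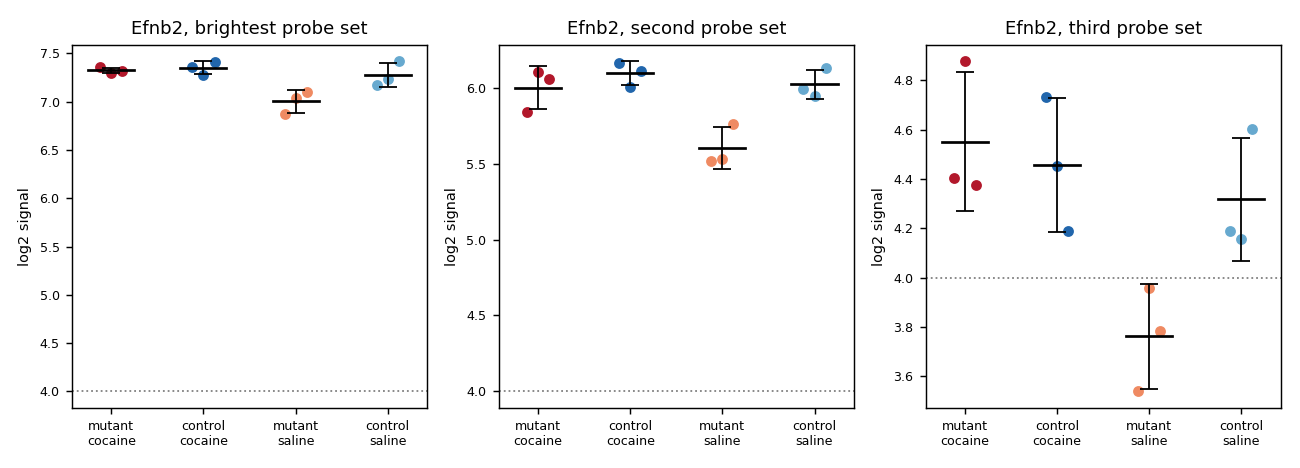
Log2 signal of each array for the 3 tested Efnb2 probe sets, with mean and SD of 3 arrays; vertical axes differ and the dotted line is the filter at 4. Saline mutants have the lowest mean in each panel.

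Over all 27 genes, 13 further tested probe sets of 11 genes, those of Efnb2 included, allowed a comparison. In 9 of them the genotype difference had the sign of the main probe set, and in Dpysl3, Dpysl4, Sema4a and Unc50 the opposite sign. The second probe sets of Epha4 (-0.09), Nrp1 (-0.22), Plxnc1 (-0.0003) and Sema3e (0.17) were uncalled like the first. Each of the 6 called genes had 1 tested probe set only.

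A list of proteins that guidance receptors signal through had 32 tested genes, of 49 listed. Between genotypes 3 of the 32 were higher in mutants and 2 lower, beside 4.77% and 5.92% of all tested genes. The higher ones were Ngef, the EphA-linked exchange factor ephexin (0.28, adjusted p = 0.00426), Chn1, the chimaerin downstream of EphA4 (0.26, adjusted p = 0.0121), and Tiam1, a Rac exchange factor (0.24, adjusted p = 0.0228). Kalrn, a Rac exchange factor of dendritic spines (-0.43, adjusted p = 0.0133), and Cfl1, the actin-severing protein cofilin (-0.23, adjusted p = 0.0147), were lower. A list of other cues and receptors had 17 tested genes of 44, and there only Ptprf, the LAR phosphatase, passed (-0.31, adjusted p = 0.0081). Of all tested genes 10.7% passed in either direction. The median difference was -0.02 in each list. No gene of either list passed for cocaine, in either genotype, in limma.

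Some markers of striatal neurons, striosome and matrix were called between genotypes too, and so was Lamp5 from the list of cortical markers. Of all tested genes, 4.77% were higher in mutants and 5.92% lower. Of 10 tested striatal neuron markers, Gad1, Gad2, Penk and Tac1 were higher in mutants and Rgs9 lower, and their mean level was 9.75 to 9.80 in cocaine mutants and 9.75 to 9.89 in saline mutants, against 9.64 to 9.68 in cocaine controls and 9.52 to 9.73 in saline controls. Of 6 striosome markers, Pdyn (2.20), Nr4a1, which is also an immediate early gene (1.01), and Tac1 (0.35) were higher, while Tshz1, Lypd1 and Sema5b did not pass. Its mean level was 7.67 to 7.74 in cocaine mutants and 7.33 to 7.46 in saline mutants, against 7.10 to 7.21 in cocaine controls and 6.62 to 6.76 in saline controls. Of 6 matrix markers, Gda and Gucy1a1 were higher and Calb1, Cdh8 and Id4 lower; this list holds Epha4. Its mean level overlapped between genotypes, at 7.71 to 7.90 in cocaine mutants and 7.74 to 7.87 in saline mutants, against 7.83 to 7.92 in cocaine controls and 7.67 to 7.98 in saline controls. Of 9 cortical markers on the array, Lamp5 was lower (-0.64, adjusted p = 0.000181) and Nrgn did not pass (0.17, adjusted p = 0.323). The other 7 read at most 3.63 on any array, whereas Lamp5 had a mean of 8.23. Which tissue the Lamp5 signal came from was not tested. No marker of astrocytes, oligodendrocytes, microglia, endothelium or interneurons was called between genotypes, nor any of 3 tested markers of thalamus, septum and other forebrain. The part of these shifts in the guidance gene differences was not tested.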

How the data were processed

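Total RNA of 12 striata was hybridised to Affymetrix arrays, 1 animal an array. The deposited values are log2 signals; the submitters' processing notes name GCRMA, a background-correcting normalization and summary method, and R 2.4.1, and give no setting. Of 22690 probe sets, 20393 had 1 gene symbol in the platform annotation. Probe sets above 4 on at least 3 arrays were tested (11102), with no further normalization. limma 3.58.1 in R 4.3.3 fitted 4 group means with empirical Bayes variances, Benjamini-Hochberg adjustment over all tested probe sets and 7 contrasts, without blocks. The script was tested on simulated data. Alternatives were no filter, other filters and probe set choices, quantile normalization, median centring and array weights. Further ones were trended and robust variances, fewer groups, a replicate block and leaving out each array. Same-numbered arrays deviated together at r of -0.145 to 0.116, so the numbers were not used as pairs. Genes named in full are the called ones, the brightest uncalled one of each family and the partners of these; the others, Sema5b, Sema6b, Dpysl4 and Efnb2 included, were named after their values were seen. The genes and lists were chosen with earlier results of these data known. Promoters came from RefSeq, GRCm38.p6. P-values measure the spread between animals within these groups.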

Additional observations from a re-analysis of the deposited data

Results flagged for a closer look

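Some probe sets outside the tested set, or other than a gene's main one, passed the test when they were examined too. Of the 67 probe sets of the rule below the filter, 2 were called in the fit without a filter, beside 0.495% of all 11524 below it. One belongs to Epha6, an EphA receptor, with a mutant minus control difference of -0.35 over both treatments (adjusted p = 0.00857) and -0.52 after saline (adjusted p = 0.0155). The other is for Unc5c, a netrin receptor, at -0.33 (adjusted p = 0.0025) and -0.47 after saline (adjusted p = 0.00669). Neither passed a log2 signal of 4 on any array. The second Efnb2 probe set was called at -0.26 over both treatments (adjusted p = 0.0355) and -0.42 after saline (adjusted p = 0.0393), and the third at 0.79 for cocaine in mutants (adjusted p = 0.0385), while the brightest was not called in any of these. On the third the saline mutants had a mean of 3.76, below the filter level of 4.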

How the results depend on the processing

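The genotype count of 6 of 27 was 2 of 62 without a filter (Epha6 and Sema7a) and 2 to 5 with 1 array left out. Every count without a filter is of the 62 genes of the rule, and other filters also changed the number tested. The share of all genes called was not computed for any alternative, so these counts stand without that comparison. Over the 9 alternatives that kept every array it ran from 2 to 7. With the replicate block it was 4 (Ephb6, Plxna2, Sema3a and Sema7a); only 1 of 12 arrays correlated best with its own number. After saline the count of 1 was 2 without a filter or with array weights, and 1 to 1 with 1 array left out. After cocaine it was 1 to 2, reaching 2 without control cocaine replicate 2, where Sema3a joined. For cocaine in mutants, median centring, array weights and fitting only the groups compared each gave 1 (Sema5b), and the highest-variance probe set gave 1 (Efnb2), against 0; leaving out 1 array gave 0 to 1, with Sema5b called without control saline replicate 1 or 2. Over both genotypes, median centring gave 1 (Sema6b) and array weights 2 (Sema5b and Sema6b). Leaving out 1 array gave 0 to 1, with Sema6b called without mutant saline replicate 2 and Sema5b without control saline replicate 1. Sema6b passed the filter through the saline mutants alone, so its calls here follow in part from the filter. With 1 array left out, Crmp1 ran from -0.095 to 0.0013 and Plxnd1 from -0.072 to 0.057, crossing 0. The causes were not tested. Signals near 4, as in Slit3, Sema4d, Sema5b, Sema6b and the third Efnb2 probe set, limit what can be measured. The called genes Plxna2 (mean 4.47) and Slit2 (mean 4.45) also lay little above 4, though above it on all 12 arrays.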
